A study of Mus musculus with 9 samples.

Results

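Apolipoproteins are the proteins that coat lipoprotein particles, and the RNA levels of 9 mouse apolipoprotein genes, of 24013 gene symbols in the files, were followed across beige adipocytes of 3 genotypes. The 9 genes were Apoe, Apoc1, Apoc4 and Apoc2, which lie side by side on chromosome 7, and Apoa1, Apoa2, Apob, Apod and Apom, which lie elsewhere. The set was chosen by name around Apoe, and Apoe itself was selected on its large rise in 129 over B6 adipocytes, so that difference is given as a description with no test. All 9 symbols were found. The filter on low values, at least 1 RPKM in at least 3 of the 9 libraries, was passed by 5 of them (Apoe, Apoc1, Apoc4, Apoa2 and Apod) and by 11542 symbols in all. Apoc2, Apoa1, Apob and Apom are given by their values and reads. RPKM stands for reads per kilobase of exon, scaled to the same number of assigned reads in each library, a scale on which genes of different length can be compared.

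Lipoproteins carry triglyceride and cholesterol through blood and tissue fluid in a particle whose surface holds apolipoproteins. Apolipoprotein B is the structural protein of very low density particles, apolipoproteins A-I and A-II are the main proteins of high density particles, and the small apolipoproteins C move between particles and tune the enzymes that act on them. Apolipoprotein E is a ligand of a family of lipoprotein receptors. The liver makes most circulating apolipoproteins, while Apoe is also made by adipocytes, macrophages and astrocytes and is a known target of the liver X receptors (LXR), nuclear receptors that sense oxidised cholesterol.

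The cells were adipocytes differentiated in a dish out of the stromal vascular cells of inguinal fat, a subcutaneous depot. They came from C57BL/6J mice (B6), a strain the series calls prone to obesity, from 129X1/SvJ mice (129), which it calls resistant, and from F1 offspring of both. Cells of every group were induced at confluence for 48 h with 10% serum, 1 µM rosiglitazone (a PPARγ agonist), 850 nM insulin, 1 nM of the thyroid hormone T3, 0.5 mM IBMX, 1 µM dexamethasone and 125 nM indomethacin, were then kept with serum, insulin, T3 and rosiglitazone, and were taken at day 7. No group was left without rosiglitazone. Each group had 3 libraries. The sources used here give neither sex and age of the mice nor the mother's strain of the F1, and do not say whether libraries came from separate animals. P-values therefore speak for the spread among these libraries alone, which may be technical.

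Per library, B6 had 19130022 to 26931438 assigned reads, 129 had 23710908 to 28473083 and F1 had 39686986 to 53410947, so every F1 library was deeper than every parental one. All 10 adipocyte markers of the list passed the filter. Against B6, 2 of them were higher and 2 lower for 129, and 3 higher and 1 lower for F1 (limma, threshold 0.05). Over all genes tested, 37.5% passed in 129 minus B6 and 31.2% in F1 minus B6. With a count model on recovered reads (voom) 3 markers were higher for 129 and 4 for F1. With median-of-ratios rescaling 4 were higher for F1. Summed per library, the 10 reached 27266 to 31220.1 RPKM (B6), 31309 to 33620.4 (129) and 35336 to 37615 (F1). The most abundant marker made up most of each sum. Adipoq, the adipokine adiponectin, was among the 2 lower for 129. It was at 1508 ± 68.3 RPKM in B6, 1289 ± 29.9 in 129 and 1349.9 ± 34.2 in F1 (SD, n = 3 each). Ucp1, the uncoupling protein of beige cells, was at 9.88 ± 0.752, 62.6 ± 1.96 and 52.4 ± 1.79 RPKM (SD, n = 3 each). None of 10 hepatocyte markers reached 1 RPKM in any library, and their summed level was 0.295 to 0.839 RPKM. These are bulk samples, in which fewer cells of a type and less RNA per cell cannot be told apart.

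Promoter sequence is shown for Apoe, for Apoc4 of the same cluster, whose level differed least between the strains among the 3 tested cluster genes, and for Apoa2, which moved the other way. Each run is the 250 bases before the start, read 5′ to 3′ on the gene's strand from RefSeq (GRCm38.p6, a C57BL/6J sequence). That build differs from mm9, which the files use, and the sequence of 129 was not analysed here. Capitals mark matches on either strand to TATAAA (the TATA box), CCAAT (the CCAAT box), GGGCGG (the GC box) and TTGGC (a core motif of nuclear factor I, the family of NFIA, named in the series title). The table held windows for 8 of the 9 genes. It had none for Apoc1, 3 for Apoe and 2 for Apoa2, of which the one is shown whose gene span is nearest to that in the files. The windows shown lie at chr7:19699189-19699438 on the minus strand for Apoe, at chr7:19681461-19681710 on the minus strand for Apoc4 and at chr1:171224804-171225053 on the plus strand for Apoa2.
Apoe: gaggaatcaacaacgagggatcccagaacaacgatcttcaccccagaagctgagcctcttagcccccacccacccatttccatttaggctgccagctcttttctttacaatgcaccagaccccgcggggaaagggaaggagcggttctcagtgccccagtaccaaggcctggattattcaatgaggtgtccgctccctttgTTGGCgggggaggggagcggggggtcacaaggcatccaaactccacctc
Apoc4: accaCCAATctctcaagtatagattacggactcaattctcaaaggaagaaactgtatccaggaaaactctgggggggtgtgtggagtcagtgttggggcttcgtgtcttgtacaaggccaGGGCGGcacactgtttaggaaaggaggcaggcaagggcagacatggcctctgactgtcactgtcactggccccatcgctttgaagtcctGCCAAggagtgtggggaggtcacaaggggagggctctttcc
Apoa2: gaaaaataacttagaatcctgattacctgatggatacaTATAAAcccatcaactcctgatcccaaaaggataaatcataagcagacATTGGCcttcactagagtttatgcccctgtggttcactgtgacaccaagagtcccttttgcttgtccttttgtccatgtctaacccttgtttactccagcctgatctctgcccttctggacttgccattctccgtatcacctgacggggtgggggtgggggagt
The Apoe window shown held 1 match, TTGGC beginning 49 bases before the start. Of its other windows, the second held TATAAA on both strands, 100 and 96 bases before that start, and the third TTGGC at 57 bases. Apoc4 held CCAAT beginning 246 bases before the start, GGGCGG beginning 130 bases before it and, on the other strand, TTGGC beginning 41 bases before it. Apoa2, in the window shown, held TATAAA 212 bases before the start and a run in which a reverse CCAAT, at 164 bases, and TTGGC, at 163 bases, overlap, while its other window held no TATAAA. These letters are common: of 32851 mouse windows of the same length, 12.4% held TATAAA, 33.8% CCAAT, 32.7% GGGCGG and 41.5% TTGGC. A match describes the sequence and is not a site of binding.

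The most abundant of the 9 genes was Apoe (mm9, chromosome 7, 20281593 to 20284515, minus strand, 4 exons). Its RPKM in the 3 B6 libraries was 118, 109 and 129.5. In 129 it was 1096, 1092 and 1179.7, and in F1 it was 684, 645 and 596. The groups did not overlap, and every F1 library lay between the 2 parental groups. Means were 119 ± 10.5 in B6, 1122 ± 49.6 in 129 and 642 ± 43.8 in F1 (SD, n = 3 each), a 9.45-fold higher level in 129 than in B6. Among all symbols ranked by mean RPKM, Apoe stood at place 616 in B6, 31 in 129 and 81 in F1. Counted as reads, the gene took 0.0136% to 0.0162% of a B6 library and 0.137% to 0.148% of a 129 library.

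**Figure D1:**
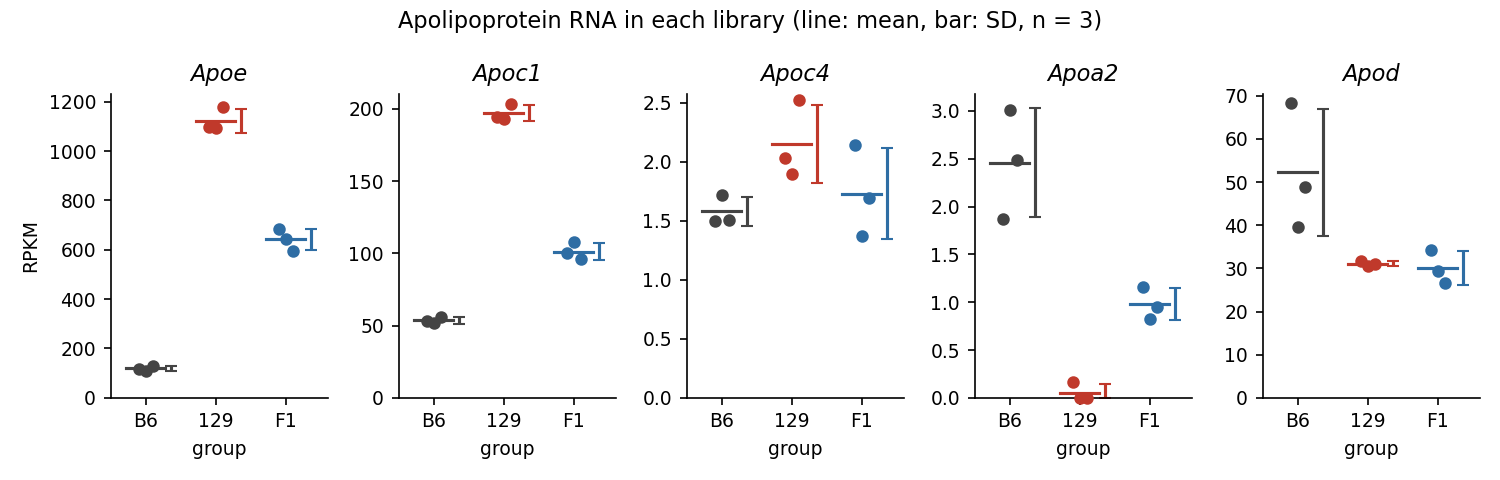
RPKM of the 5 tested apolipoprotein genes in B6, 129 and F1 adipocytes; each point is 1 library, each horizontal line the mean of 3, each bracket the SD, and the vertical scales differ between panels. Apoe runs from 109 to 129.5 RPKM in B6 and from 1092 to 1179.7 in 129 with F1 between them, whereas Apoa2 is highest in B6 and has no reads in 2 of the 129 libraries.

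In F1, whose libraries the choice of Apoe did not use, the gene was above B6 and below 129. The log2 fold change was 2.43 ± 0.07 against B6 and -0.81 ± 0.07 against 129 (limma, SE). The F1 mean was 5.4 times the B6 mean and 0.572 times the 129 mean. Both comparisons share the parental libraries on which Apoe was chosen, so these values are descriptions and carry no test. For any single gene, an exact two-sided permutation test of 3 libraries against 3 cannot give a p below 0.1.

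Apoc1, the neighbour of Apoe, encodes a small apolipoprotein that inhibits lipoprotein lipase and the uptake of particles by receptors. The gene (chromosome 7, 20274829 to 20278008, minus strand, 3 exons) was at 53.1, 51.7 and 56.1 RPKM in B6, 194, 193 and 203 in 129, and 100.1, 108 and 96.1 in F1. As for Apoe, all F1 libraries lay between the parental groups and no group overlapped another. It rose 3.66-fold in 129 over B6, from 53.6 ± 2.24 to 197 ± 5.43 RPKM (SD, n = 3), a log2 fold change of 1.85 ± 0.05 (limma, adjusted p = 1.29e-09). F1, at 101 ± 5.85 RPKM, was above B6 by 0.90 ± 0.05 (adjusted p = 1.22e-06) and below 129 by a log2 fold change of -0.95 ± 0.05 (limma, adjusted p = 9.60e-07).

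The ratio of the 2 genes is given as a description, since Apoe was chosen for its rise in 129 and a higher ratio there in part restates that choice. Apoe was 2.22, 2.1 and 2.31 times Apoc1 per length in the B6 libraries, 5.64, 5.67 and 5.82 times in 129 and 6.83, 5.99 and 6.21 times in F1. The 129 and F1 ratios did not overlap with those of B6, and every F1 ratio was above every 129 ratio. Group means were 2.21 ± 0.105, 5.71 ± 0.0964 and 6.34 ± 0.436 (SD, n = 3 each). Of the summed RPKM of the 9 genes, Apoe made up 48.2% to 53.9% in B6, while 129 had 82.7% to 83.2% and F1 had 82.1% to 83.1%.

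Apoc4 and Apoc2, the other 2 genes of the cluster, were near the limit of the filter. The cluster spans 27.6 kb (chromosome 7, 20256928 to 20284515), all on the minus strand. Apoc4 (20263433 to 20266809), a minor apolipoprotein of very low density particles, was at 1.5, 1.72 and 1.51 RPKM in B6, 2.03, 1.9 and 2.52 in 129 and 2.14, 1.37 and 1.69 in F1. The 129 libraries lay above those of B6, and F1 overlapped both. The log2 fold change of 129 over B6 was 0.29 ± 0.11 and missed the threshold (limma, adjusted p = 0.0542). It passed with median-of-ratios rescaling (0.31, adjusted p = 0.0425), with sample weights (0.33, adjusted p = 0.0131) and with only these 2 groups in the fit (adjusted p = 0.0334). It also passed without F1 replicate 1 (adjusted p = 0.028) or F1 replicate 2 (adjusted p = 0.0357). It missed the threshold with voom on recovered reads (0.46, adjusted p = 0.162), the replicate block (0.0662), a pseudocount of 0.1 (0.0573) and no filter (0.102). Without any 1 library of B6 or 129, or without F1 replicate 3, it missed it too (limma, adjusted p 0.0509 to 0.188).

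Apoc2 (20256928 to 20263290, 5 exons) encodes the cofactor that lipoprotein lipase needs. It was not tested, with 1.45, 0.575 and 1.23 RPKM in B6, 0.405, 0.435 and 0.522 in 129 and 0.555, 0.67 and 0.356 in F1. The lowest B6 library lay just above the highest of 129 and among those of F1. These values stand on 27, 8 and 24 reads in B6, 7, 9 and 9 in 129 and 16, 26 and 13 in F1. The pooled read rate of B6 was 2.5 times that of 129, with an exact 95% interval of 1.54 to 4.17 that covers counting error only.

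Of the apolipoproteins of high density particles, Apoa2 went against Apoe and Apoc1. Apoa2 (chromosome 1, 173155185 to 173156510, plus strand, 4 exons) was at 1.87, 3.01 and 2.49 RPKM in B6, 0.161, 0 and 0 in 129, and 1.16, 0.827 and 0.955 in F1. The 3 groups did not overlap, and F1 lay between the parents. The levels rest on 90 reads in the B6 libraries together, 2 in those of 129 and 72 in those of F1. The pooled read rate of B6 was 47.7 times that of 129, with an exact 95% interval of 12.8 to 399.7 for counting error. An RPKM of 0 stands for no read, which at 3 reads allows up to 0.202 and 0.243 RPKM in the 129 libraries concerned.

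Apoa2 passed the filter through its 3 B6 libraries and 1 of F1, so a difference between the groups was built into its passing, and its values are given with no test. The log2(RPKM + 1) fold change was -1.70 ± 0.12 in 129 minus B6, -0.79 ± 0.12 in F1 minus B6 and 0.91 ± 0.12 in F1 minus 129, on a scale that understates changes near 0. With voom on recovered reads these values were -5.18, -1.26 and 3.92. With a pseudocount of 0.1 the 129 minus B6 value was -4.19.

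Apoa1, whose product is the core protein of high density particles and activates the enzyme LCAT, was not tested. It was at 0.355, 0.317 and 0.338 RPKM in B6, 0.425, 0.711 and 0.555 in 129 and 0.587, 0.379 and 0.343 in F1 (chromosome 9, 46036713 to 46038552, plus strand). All 129 libraries were above those of B6, on 43 reads against 24. The pooled read rate of B6 was 0.591 times that of 129 (exact 95% interval 0.343 to 0.997, counting error only).

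Apob was close to the floor in every group. The gene (chromosome 12, 7984483 to 8023645, plus strand, 29 exons) ranged from 0.0413 to 0.0587 RPKM in B6, while 129 had 0.0181 to 0.0485 and F1 had 0.01 to 0.0162, from 48, 32 and 25 reads. F1 lay below both parents without overlap, at 0.261 times the pooled read rate of B6 (exact 95% interval 0.154 to 0.431, counting error only). Mttp, the transfer protein that loads lipid onto apolipoprotein B, was at 2 ± 0.116 RPKM in B6 and 3.66 ± 0.255 in 129 (SD, n = 3).

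Apod and Apom encode lipocalins, small proteins that bind single lipid molecules, and only distantly resemble the other apolipoproteins. Apod (chromosome 16, 31296278 to 31314682, minus strand, 6 exons) was the third most abundant of the set, with 68.4, 39.6 and 48.9 RPKM in B6, 31.7, 30.5 and 31.1 in 129 and 34.3, 29.4 and 26.6 in F1. The B6 libraries varied most (52.3 ± 14.7 RPKM, SD, n = 3), yet all 3 lay above those of 129 (31.1 ± 0.614) and F1 (30.1 ± 3.89), which overlapped each other. Apod fell in 129, with a log2 fold change of -0.70 ± 0.16 (limma, adjusted p = 0.00559), and in F1 against B6, with -0.75 ± 0.16 (limma, adjusted p = 0.00503). F1 minus 129 was -0.05 ± 0.16 (adjusted p = 0.843).

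The size of the Apod difference depended on B6 replicate 1, its highest library. Without it the 129 minus B6 value was -0.49, and without B6 replicate 2 it was -0.87. Schwann cells also express Apod. Of 4 Schwann cell markers 2 never reached 1 RPKM (Sox10 and Cdh19). The 2 tested did not pass the test in 129 minus B6 (1 was higher under either other scaling), where 37.5% of all genes passed. The summed level of the 4 was 3.85 to 3.99 RPKM for B6, 4.17 to 4.25 for 129 and 4.05 to 4.42 for F1.

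Apom, whose product carries sphingosine-1-phosphate on high density particles, was at 0.109, 0.0731 and 0.208 RPKM in B6, 0.176, 0.0982 and 0 in 129 and 0.352, 0.131 and 0.223 in F1 (chromosome 17, 35265942 to 35268697, minus strand). The groups overlapped, on 7, 5 and 23 reads. No difference was detectable at this depth.

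Apoa2 is left out of the counts that follow, for the reason given. Apoe is left out too, since each contrast uses parental libraries on which it was chosen. In 129 minus B6, 2 of Apoc1, Apoc4 and Apod passed the test, Apoc1 higher and Apod lower. Over all genes tested 37.5% passed, 15.9% higher and 21.7% lower, and 49.9% had groups that did not overlap. In F1 minus B6, Apoc1 was higher, Apod was lower and Apoc4 did not pass, against 31.2% of all genes passing (11.0% higher, 20.2% lower, 44.2% without overlap). In F1 minus 129, Apoc1 was lower, and Apoc4 and Apod did not pass, against 27.7% of all genes passing (12.0% higher, 15.7% lower, 44.5% without overlap). These contrasts share libraries, and the split of all genes into higher and lower moved with scaling. Median-of-ratios rescaling gave 2257 higher and 1995 lower for 129 minus B6, in place of 1834 and 2499, and 1904 and 1591 for F1 minus B6, in place of 1270 and 2329. On reads recovered from the RPKM steps (voom) F1 minus B6 gave 1823 and 1976. No tested apolipoprotein changed direction under either in the 129 minus B6, F1 minus B6 and F1 minus 129 contrasts.

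**Figure D2:**
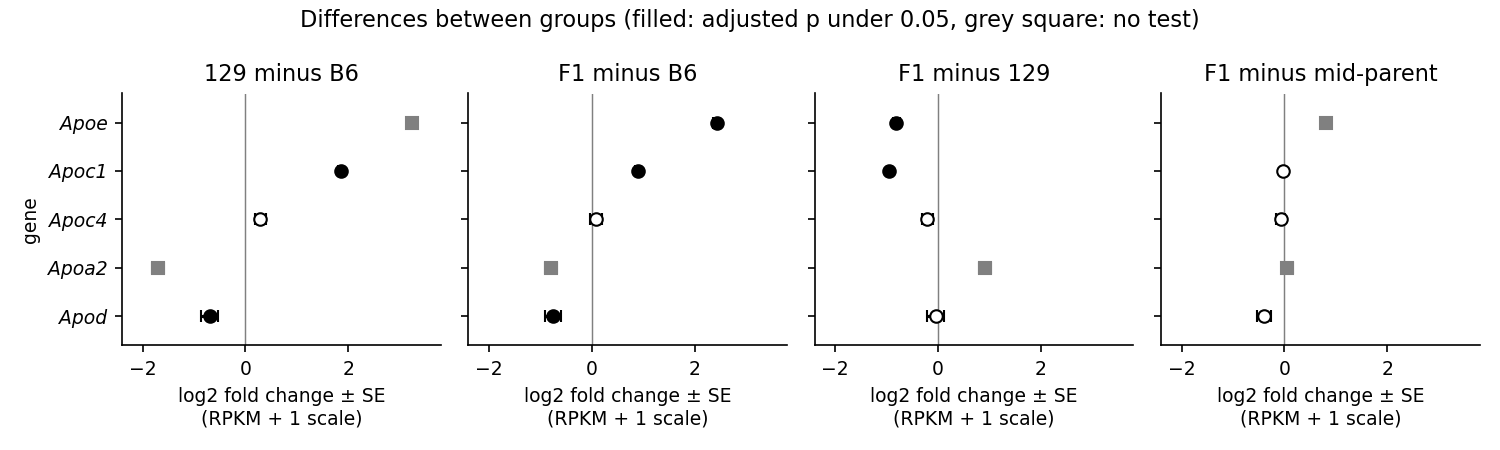
Log2 fold changes of the 5 tested apolipoproteins in 4 contrasts, on the log2(RPKM + 1) scale, with limma standard errors; filled points passed the test, open points did not, and grey squares are values given with no test (Apoe in 129 minus B6 and against the mid-parent value, and Apoa2). Apoe is drawn filled in F1 minus B6 and F1 minus 129, where its values carry no test either. Apoe and Apoc1 lie to the right of 0 in 129 minus B6 at 3.23 and 1.85, and Apoa2 and Apod to the left at -1.70 and -0.70.

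Whether the F1 level equalled the mean of its parents depended on the scale for Apoe and Apoc1. The mean of the 2 parental RPKM values was 621 for Apoe, and F1, at 642, was 1.03 times that. The mean of the parental log2 values corresponds to 365 RPKM, and F1 was 1.76 times that. Apoe thus sat 52.1% of the way from B6 to 129 in RPKM and 75% of the way in log2. F1 was above the mid-parent value by 0.81 ± 0.06 (limma standard error) on the log2 scale, and the log2 ratio of F1 to the mid-parent value was 0.05 ± 0.07 on the RPKM scale. The mid-parent value is built from the parental libraries on which Apoe was chosen, so these values of Apoe carry no test.

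For Apoc1 the scales gave the other result. F1, at 101 RPKM, was 0.984 times the log2 mid-parent value of 103, a difference of -0.02 ± 0.04 (limma, adjusted p = 0.73). With the parental RPKM values averaged instead, to 125, F1 was 0.809 times as high, a log2 ratio of -0.30 ± 0.05 (limma, adjusted p = 0.00128). The F1 level of Apoc1 lay 33.3% of the way from B6 to 129 in RPKM and 48.7% in log2.

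Apod in F1 was close to the lower parent. Its F1 level was 0.722 times the RPKM mid-parent of 41.7 and 0.755 times the log2 mid-parent of 39.8. The log2 difference of -0.40 ± 0.14 missed the threshold on the log2 scale (limma, adjusted p = 0.0581), and the log2 ratio of -0.44 ± 0.14 passed on the RPKM scale (adjusted p = 0.0414). On the log2 scale it passed with the replicate block (-0.40, limma, adjusted p = 0.026), with voom on recovered reads (-0.39, adjusted p = 0.0327) and with sample weights (-0.56, adjusted p = 0.00694). It also passed with a filter at 5 RPKM (adjusted p = 0.045) and without B6 replicate 1 (-0.30, adjusted p = 0.0378) or B6 replicate 2 (-0.49, adjusted p = 0.00784). It missed the threshold with a pseudocount of 0.1 (limma, adjusted p = 0.0591), no filter (0.132) and median-of-ratios rescaling (0.0774). Without any 1 of the other libraries it missed it too (limma, adjusted p 0.0621 to 0.205). Apoc4 passed on neither scale (-0.07 ± 0.09 on the log2 scale, adjusted p = 0.644). Apoa2, given with no test, was at 0.06 ± 0.10 on the log2 scale and at 1.33 with voom on recovered reads. Of all genes 23.2% passed on the log2 scale (8.35% higher, 14.8% lower) and 23.7% on the RPKM scale (7.52% higher, 16.2% lower). On the log2 scale the split of all genes was 964 higher and 1712 lower, 1425 and 1250 with median-of-ratios rescaling and 1503 and 1572 on recovered reads.

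**Figure D3:**
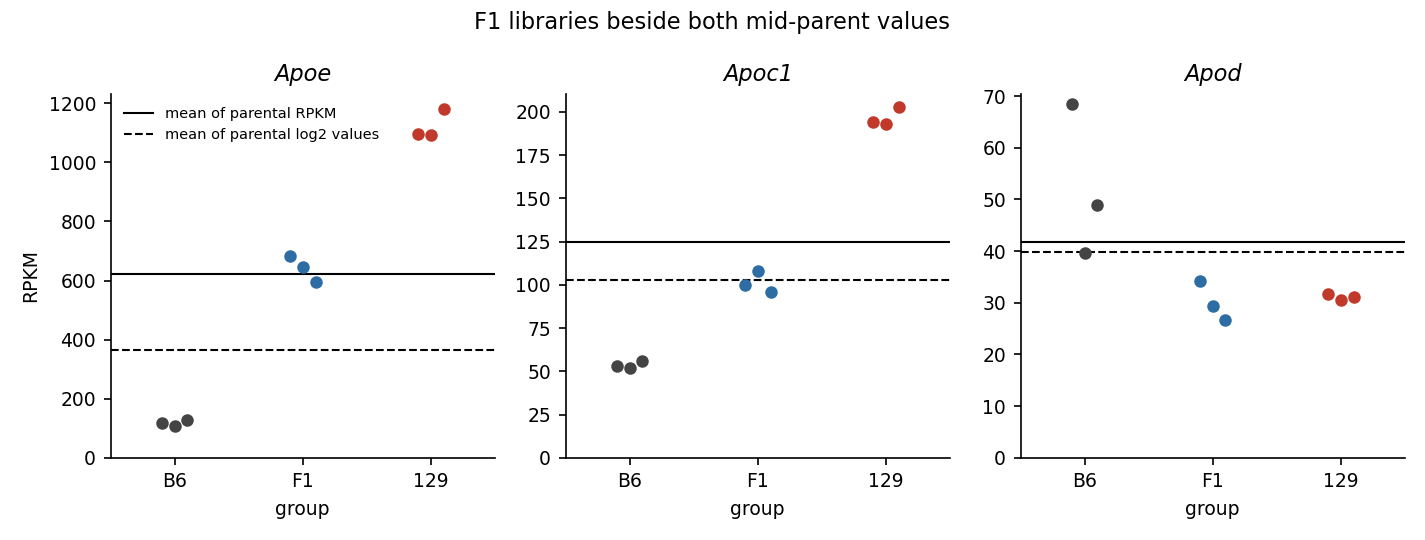
RPKM of Apoe, Apoc1 and Apod in each B6, F1 and 129 library (points), with the mean of the parental RPKM values as a solid line and that of the parental log2 values as a dashed line. The F1 points surround the solid line for Apoe (621 RPKM) and the dashed line for Apoc1 (103 RPKM), and lie below both for Apod.

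The tested genes around the cluster differed less between the strains than Apoe and Apoc1. Within 500 kb on either side the files list 47 other genes, of which 22 were tested. In 129 minus B6, 10 were higher, 5 lower and 7 did not pass, and their log2 fold changes ran from -0.54 to 0.51. That is 68.2% passing against 37.5% of all genes, a description of neighbouring genes that are not independent of each other. In F1 minus B6, 5 were higher and 3 lower, 36.4%, against 31.2% of all genes. Among the untested neighbours, Zfp296, a zinc finger gene 90.9 kb away on the Apoc2 side, was at 0.477 ± 0.0404 RPKM in B6, 0.052 ± 0.00527 in 129 and 0.315 ± 0.0476 in F1 (SD, n = 3 each). In proportion that difference between the strains is about as large as that of Apoe, and the gene was singled out after its values were seen.

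The nearest tested genes on the Apoe side were Tomm40, Pvrl2 and Bcam. Tomm40, a channel of the outer mitochondrial membrane 2.1 kb from the cluster, rose from 67.5 ± 2.44 to 80.2 ± 4.21 RPKM in 129 (SD, n = 3; log2 fold change 0.24 ± 0.06, limma, adjusted p = 0.00587). Pvrl2 (nectin-2, a cell adhesion protein), at 17.5 kb, was higher by 0.41 ± 0.06 in 129 (limma, adjusted p = 4.06e-04) and by 0.62 ± 0.06 in F1 (adjusted p = 5.50e-05). Bcam, an adhesion receptor at 57.0 kb, did not pass (-0.05 ± 0.07, adjusted p = 0.62). On the Apoc2 side, Clptm1, a membrane protein 6.5 kb away, fell by 0.43 on the log2 scale in 129 (SE 0.05, limma, adjusted p = 6.34e-05). Relb, a subunit of NF-κB at 42.1 kb, did not pass (0.16 ± 0.08, adjusted p = 0.163), except without 129 replicate 1 (0.25, adjusted p = 0.0216). Clasrp, a splicing-related protein at 67.1 kb, was higher (0.23 ± 0.06, adjusted p = 0.0127).

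**Figure D4:**
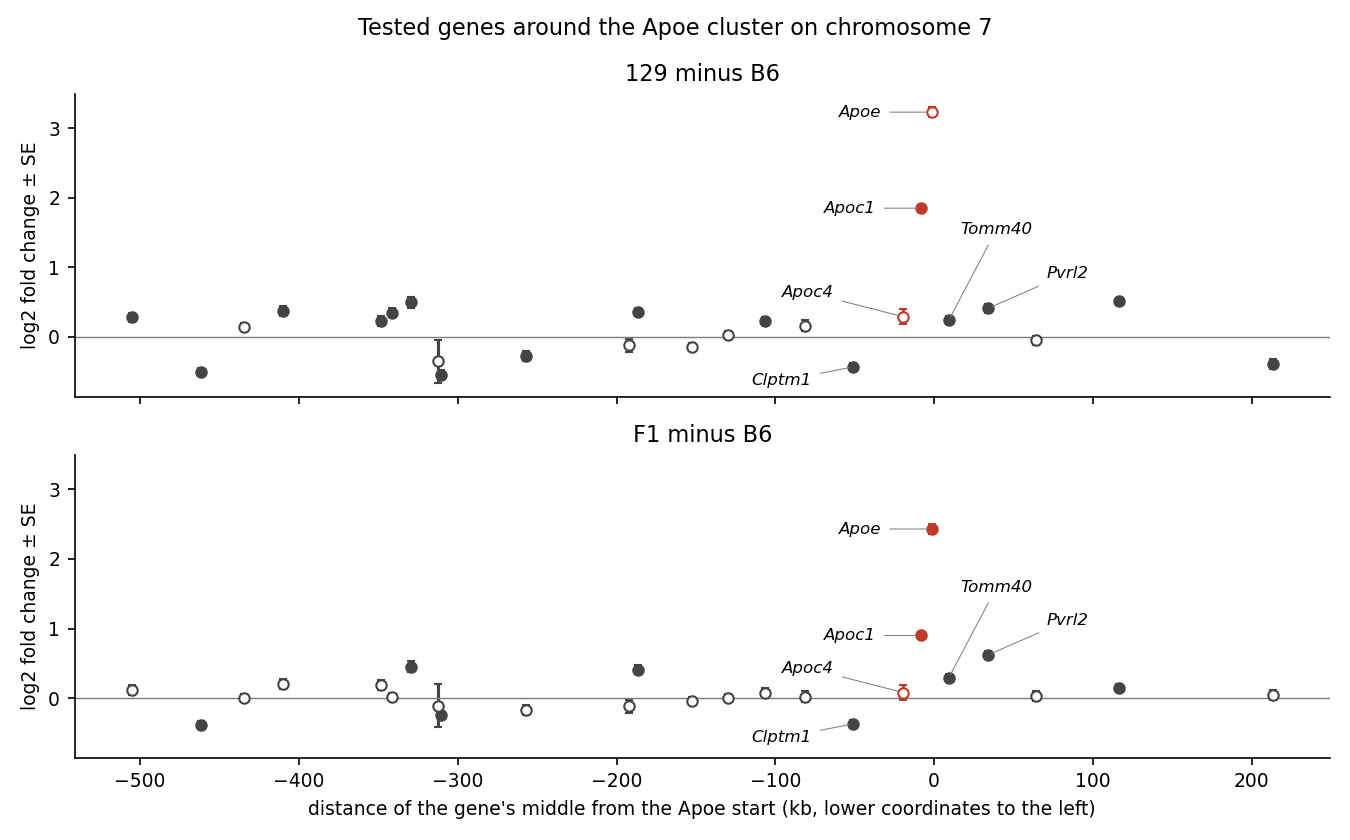
Log2 fold changes (limma, with standard errors) of tested genes around the cluster against the distance of each gene's middle from the Apoe start, for 129 minus B6 and F1 minus B6; red points are cluster genes, filled points passed the test, and Apoe in the upper panel was not tested. In the lower panel Apoe is drawn filled, though its value there carries no test. The tested neighbours lie between -0.54 and 0.51 in 129 minus B6, below the 1.85 of Apoc1 and the 3.23 of Apoe.

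The genes whose log2(RPKM + 1) over the 9 libraries was most like that of Apoe lay on other chromosomes. Among 285 named genes whose group means spanned at least 1 on the log2 scale, the highest Pearson r was that of Ifi202b (0.998), an interferon-inducible gene on chromosome 1. Cd1d2 (0.997), an antigen-presenting protein, Trem2 (0.997), a receptor that binds apolipoprotein E, Gstt2 (0.996), a glutathione transferase, and Tpsab1 (0.996), a tryptase, followed. Apoc1 came at rank 58, with 0.955, and 19 genes had 0.99 or more. The 9 libraries form 3 groups and are shared by all genes, so these values describe the order B6, F1, 129 more than any finer likeness, and no p is given. Trem2 was at 1.02 ± 0.0721 RPKM in B6, 15.4 ± 1.61 in 129 and 7.95 ± 0.511 in F1 (SD, n = 3 each).

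Macrophages express both Apoe and Trem2, and their markers are given here with those of other cell types. Counts of passing markers stand beside 37.5% of all genes passing in 129 minus B6 (15.9% higher, 21.7% lower). In F1 minus B6 the share was 31.2% (11.0% higher, 20.2% lower). Of 17 macrophage markers found, 11 were tested, of which 0 were higher and 4 lower in 129 than in B6 (limma, also with voom; 0 and 6 at an unadjusted p under 0.05). The 4 of 11 are close to the share of all genes passing in either direction. All 4 were lower, where the share of all genes was 21.7%, and a difference from that share was not tested. In F1 minus B6, 0 were higher and 0 lower. Aif1, Itgam, Ptprc and Cd163 never reached 1 RPKM. The summed RPKM of the 17 ran from 53.1 to 66.2 in B6, from 25.9 to 54.7 in 129 and from 45.9 to 67 in F1. The 8 tested progenitor markers had 5 higher and 0 lower in 129, with sums of 819 to 986 RPKM in B6 and 1065 to 1139 in 129 (5 and 0 also at an unadjusted p under 0.05 and with voom). In F1 minus B6 they had 0 higher and 4 lower (1 and 4 at an unadjusted p under 0.05), with sums of 674 to 781 in F1. On either other scaling Thy1 lost its call in F1 minus B6 and 1 marker was higher. Of 5 smooth muscle markers, all tested, 3 were lower in 129 and 5 in F1 than in B6, with sums of 129 to 144 RPKM (B6), 128 to 137 (129) and 99.9 to 106 (F1). Of 6 endothelial markers 2 were tested and both were lower in 129 and in F1, with sums of 5.63 to 6.84 RPKM (B6), 2.89 to 3.86 (129) and 4.39 to 4.67 (F1). Of these 6, Cdh5, Kdr and Tie1 never reached 1 RPKM. The part of all these markers in the Apoe difference was not tested.

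Counts of passing genes in the lists that follow stand beside 37.5% of all genes passing in 129 minus B6 (15.9% higher, 21.7% lower) and 31.2% in F1 minus B6, and nothing particular to a list is read from them. Of the other apolipoprotein genes, 27 of 28 listed were found and 7 were tested, with 2 higher, 2 lower and 3 not passing in 129 minus B6 (median log2 fold change 0.12, against -0.03 over all genes). Apoc3, an inhibitor of lipolysis on chromosome 9 beside Apoa1, rose from 11.3 ± 2.77 to 18.5 ± 1.66 RPKM (SD, n = 3; log2 fold change 0.69 ± 0.16, limma, adjusted p = 0.00638), with F1 at 14.2 ± 2.97. Saa3, an acute-phase apolipoprotein of high density particles, rose by 0.55 ± 0.13 (adjusted p = 0.00713). Clu, clusterin or apolipoprotein J, fell from 7.19 ± 0.394 to 3.37 ± 0.38 RPKM (SD, n = 3; log2 fold change -0.91 ± 0.07, limma, adjusted p = 4.09e-06). Apoo, a mitochondrial inner membrane protein despite its name, had -0.33 ± 0.10 (adjusted p = 0.0282) and missed the threshold in 7 alternatives, with adjusted p from 0.0571 to 0.0755.

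Of the receptors and their regulators, 13 of 17 were tested, with 3 higher and 5 lower in 129 (median -0.11, against -0.03 over all genes) and 3 higher and 6 lower in F1 minus B6. Under both other scalings Scarb1 lost its call in 129, which left 4 lower. Vldlr, a lipoprotein receptor, had a log2 fold change of 0.15 ± 0.05 (limma, adjusted p = 0.0291) and missed the threshold without B6 replicate 1 or 2, or 129 replicate 1 or 3 (adjusted p 0.0689 to 0.0985). Lrp1, a large endocytic receptor at 93.5 ± 9.69 RPKM in B6, did not pass (-0.03 ± 0.10, adjusted p = 0.867). Sorl1, a sorting receptor that binds apolipoprotein E, went from 31.8 ± 0.66 RPKM in B6 through 9.41 ± 1.01 in F1 to 0.282 ± 0.0195 in 129 (SD, n = 3 each; limma adjusted p = 2.22e-11 for 129 minus B6). Sort1, a sorting receptor, had -0.40 ± 0.05 (adjusted p = 8.82e-05).

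Of the genes for lipoprotein assembly, lipolysis and remodelling, 18 of 23 were tested, with 7 higher and 2 lower in 129 (median 0.08). Under both other scalings Lmf1 lost its call, which left 7 higher and 1 lower. Lipg, endothelial lipase, rose from 11.1 ± 1.81 to 29.7 ± 1.63 RPKM (SD, n = 3; log2 fold change 1.36 ± 0.09, limma, adjusted p = 1.25e-06). Mttp and Pcsk5, a proprotein convertase, rose by 0.63 ± 0.06 (adjusted p = 1.31e-05) and 0.55 ± 0.05 (adjusted p = 1.27e-05). Lpl, the lipase that apolipoprotein C-II activates, was at 2487 ± 207 RPKM in B6 and 2287 ± 91.2 in 129 and did not pass (-0.12 ± 0.08, adjusted p = 0.246), except without B6 replicate 2 (-0.18, adjusted p = 0.0431). Pltp, which transfers phospholipid between particles, did not pass in 129 minus B6 (-0.12 ± 0.11, adjusted p = 0.449) and was higher in F1 than in B6 (0.37 ± 0.11, adjusted p = 0.0293).

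Of the LXR receptors and targets, 14 of 16 were tested, and 0 were higher and 5 lower in 129 (limma, also with voom; 0 and 8 at an unadjusted p under 0.05; median -0.12). The 5 of 14 are close to the 37.5% of all genes passing in either direction. All 5 were lower, where the share of all genes was 21.7%, and a difference from that share was not tested. In F1 minus B6, 2 were higher and 6 lower, and with median-of-ratios rescaling 2 and 4, without Nr1h3 and Abca1. Nr1h3, which encodes LXRα, fell from 57.3 ± 3.72 to 44.9 ± 1.29 RPKM (SD, n = 3; log2 fold change -0.34 ± 0.06, limma, adjusted p = 9.21e-04). Abcg1, a cholesterol exporter, fell from 12.8 ± 1.24 to 5.23 ± 0.444 RPKM in 129 (-1.15 ± 0.07, adjusted p = 5.21e-07) and was at 12 ± 0.0544 in F1. Mylip, an E3 ubiquitin ligase, and Lpcat3, a phospholipid acyltransferase, had -0.33 ± 0.04 (adjusted p = 1.70e-04) and -0.29 ± 0.04 (adjusted p = 3.08e-04). Abca1, the exporter that loads apolipoprotein A-I with lipid, missed the threshold (-0.19 ± 0.07, adjusted p = 0.0608) and passed with sample weights, with only these 2 groups in the fit and without F1 replicate 1 or F1 replicate 3 (adjusted p 0.0061 to 0.0431). The 5 calls in 129, which leave out Abca1, stood under both other scalings. Abca1, Abcg1, Pltp and Mylip each stand in 2 of the lists.

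**Figure D5:**
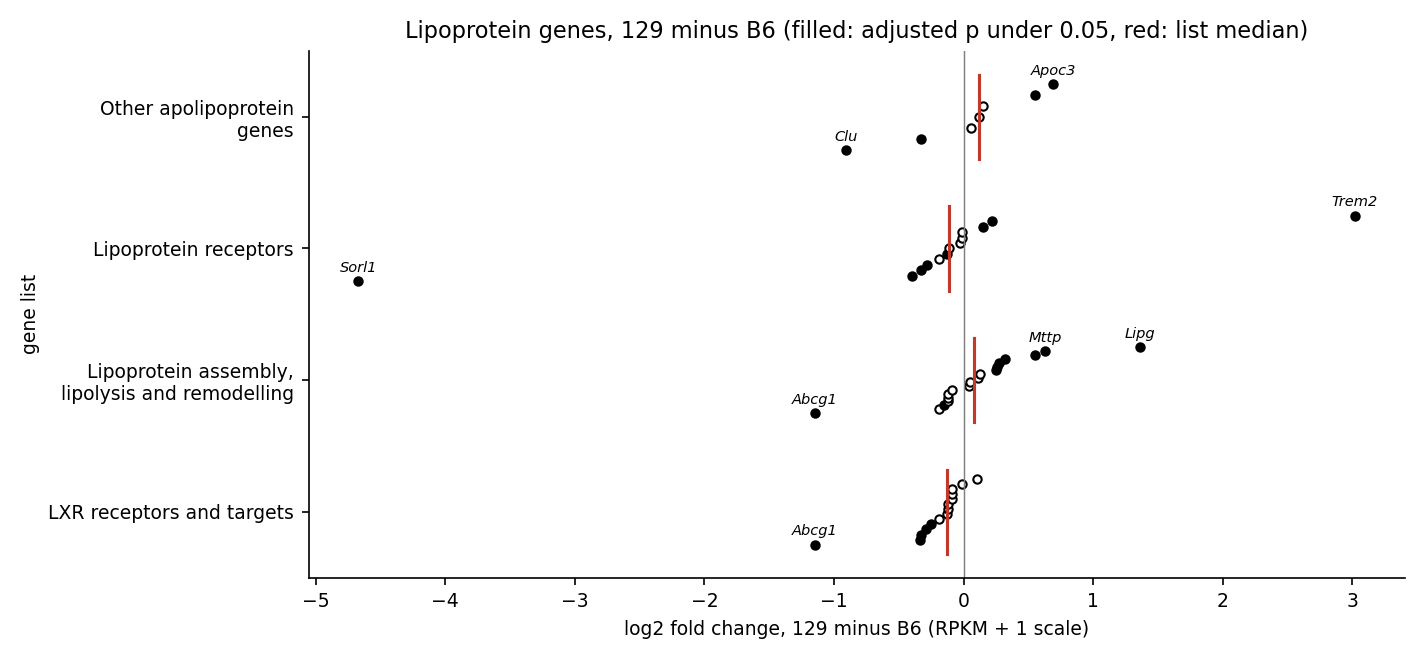
Log2 fold changes in 129 minus B6 of tested genes of the 4 lists (limma), 1 point per gene; filled points passed the test, and red lines are list medians. In the LXR list 5 genes are lower and 0 higher, in the receptor list 5 are lower and 3 higher, and in the assembly and lipolysis list 7 are higher and 2 lower, beside 37.5% of all genes passing.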

How the data were processed

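Poly(A) RNA was prepared with a stranded TruSeq kit, per the labels' protocols. The authors deposited 1 RPKM value per gene and library. STAR and mm9 are named in the submitters' processing notes. The sources used here give no counter, annotation or version. mm9 is a C57BL/6J genome, and the effect of aligning 129 reads to it was not tested.

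RPKM times exon length fell on whole reads in 100.00% of rows (tolerance 0.1 read), which gave the depths. Replicates differed beyond counting error (chi-square per degree of freedom 3.83 to 15.1). Of 24015 rows, 2 repeated a symbol and were dropped. Cells of 5 unnamed columns on 31 rows were not used.

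log2(RPKM + 1) of genes with at least 1 RPKM in at least 3 libraries was fitted with limma 3.58.1 (R 4.3.3, trend), 1 mean per group over all 9 libraries. Two-sided p-values were adjusted after Benjamini and Hochberg over the 11542 genes tested, with a threshold of 0.05. The procedure was tested on simulated data, where it recovered the larger changes. There its share of false calls exceeded the nominal threshold, mostly at genes with few reads, and was closer to it with voom on recovered reads. The limit allowed for that share was widened after it was seen. The simulated spread between libraries was fixed and not taken from these data. For Apoa2 and, in 129 minus B6, for Apoc4 the voom value is therefore printed beside the main one. Errors of RPKM are SD over 3 libraries, and those of log2 values are limma's standard errors. Intervals on reads are exact 95% intervals for a ratio of 2 counts.

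The members and lists were chosen with earlier results of these data known. Genes named were the 9 members, the 3 nearest tested genes on each side of the cluster, up to 4 passing genes with the largest absolute log2 fold change per list, a fixed set of lipoprotein genes always named (Lrp1, Vldlr, Abca1, Abcg1, Lpl, Nr1h3 and Pltp) and the 5 genes most like Apoe. Ucp1, Adipoq, Thy1, Scarb1, Lmf1 and Zfp296 were named in addition. So were the macrophage, endothelial and Schwann cell markers that never reached 1 RPKM. A few other listed genes are not reported here and were left out of the lists. Alternatives were another pseudocount, filter, scaling, weighting, count model on recovered reads, replicate block, set of libraries and mid-parent scale.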

Additional observations from a re-analysis of the deposited data

How the results depend on the processing

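The number of genes passing in each of the 4 contrasts stayed within 1.5 times its value under every alternative run. Of 332 alternative values of the 5 tested apolipoproteins, 315 kept their direction and side of the threshold or did not pass on either side. A further 16 newly passed, 1 no longer passed and 0 passing values reversed. These counts include the values of Apoe and Apoa2, which are descriptions whose stability is no evidence. The 1 lost was Apoe in F1 minus mid-parent on the RPKM scale (0.05). The number of apolipoproteins passing in F1 minus mid-parent, Apoe and Apoa2 counted though their values there are descriptions, was 1. That 1 was Apoe itself, and none of Apoc1, Apoc4 and Apod passed, beside 23.2% of all genes. The number was 2 with a filter at 5 RPKM, with sample weights and with the replicate block. On the RPKM scale it was also 2 (Apoc1 and Apod), beside 23.7% of all genes. It was 3 on recovered reads (voom), and 1 to 2 when single libraries were left out. It was 2 without B6 replicate 1 or B6 replicate 2. Apod was the added gene on the log2 scale (-0.56 with weights, -0.39 with voom, -0.30 without B6 replicate 1 and -0.49 without B6 replicate 2), and voom added Apoa2 (1.33). Apoc4 in F1 minus 129 passed with weights (-0.30) and without F1 replicate 1 (-0.31). With no filter Apoc2 in 129 minus B6 (-0.49, limma adjusted p = 0.0458) and Apob in F1 minus B6 (-0.05, adjusted p = 0.0398) passed. Whether replicate numbers pair the libraries was not settled. Same-numbered libraries of different groups had correlations of deviations from -0.19 to 0.22, with 4 of 9 pairs over 0.1. Differently numbered libraries had -0.20 to 0.23, with 4 of 18 pairs over 0.1, and 5 of 9 libraries correlated best with their own number. With the replicate block 4267 genes passed in 129 minus B6 (4333 without it), 3546 in F1 minus B6 (3599), 3066 in F1 minus 129 (3200) and 2587 against the mid-parent value (2676). The alternatives were extended after seeing the data to 25 other genes in 129 minus B6, the nearest tested neighbours and the list genes named by rule. Of their 422 values 405 kept their call, 6 newly passed and 11 no longer did. Depth limits Apoc2, Apoa1, Apob and Apom, which had 35 to 139 reads each over the 9 libraries.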
